A study of Homo sapiens with 18 samples.

Results

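The genes described here are 10 immediate early genes of Burkitt lymphoma cells that received a short hairpin RNA (shRNA) against the transcription factor FOXO3. They are FOS and FOSB, JUN, JUNB and JUND, EGR1, EGR2 and EGR3, IER2 and DUSP1. The members were taken by gene symbol from the deposited table of each cell line, and all 10 had a row in every table, out of 17561 genes listed in at least 1 table and 14549 listed in all 3. The lines were BL-41, Namalwa and Jiyoye, established lines of Burkitt lymphoma, a B cell tumour. Epstein-Barr virus is present in Namalwa and in Jiyoye. In each line one arm received the lentiviral vector pRSI12-U6-shUbiC-TagRFP with FOXO3 shRNA and the other the same vector with a scrambled sequence, and transduced cells were sorted out 4 days later. All groups therefore share lentiviral infection, a red fluorescent marker and cell sorting, and no group was left uninfected. There were 18 libraries, 3 in each of the 6 groups. The labels speak of triplicates but do not name separate cultures, so a p-value reflects only how far these libraries spread, and that spread may be technical.

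Immediate early genes are switched on within minutes of a signal without new protein synthesis, and their messages are short-lived. FOS and JUN proteins pair into the AP-1 transcription factor, EGR proteins are zinc finger transcription factors, IER2 is a nuclear regulator of transcription, and DUSP1 is a phosphatase that switches off the MAP kinases that induced it. In B cells the family is known for its fast response to the B cell receptor, and it also answers to stress and handling of cells in many tissues.

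Of the 10 genes, 3 rose in BL-41 (IER2, EGR2 and JUNB), 1 rose in Jiyoye (JUND) and none was called in Namalwa, and no member fell in any line. A gene is called here at an adjusted p under 0.05 in the authors' deposited table, a threshold that 28.7% of all genes passed in BL-41, 17.4% in Jiyoye and 6.41% in Namalwa. The targeted transcript, FOXO3, had a log2 fold change (FOXO3 shRNA relative to scrambled) of -0.79 for BL-41, -1.09 for Namalwa and -0.30 for Jiyoye in the authors' deposited table, where it was called in BL-41 and Namalwa (adjusted p = 3.15e-07 and 2.49e-09, DESeq2) and not in Jiyoye (adjusted p = 0.187, DESeq2). The labelled depletion of the target was thus not shown in Jiyoye, the line in which JUND rose. The FOXO3 fold change was lower in Namalwa than in Jiyoye by a difference of -0.80 (interval -1.23 to -0.37, adjusted p = 0.0174, z test described with the tests between lines).

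The upstream sequences of the 4 called genes are shown because the motifs for which immediate early promoters are known differ among them. Windows of 250 bases before the transcription start were taken from RefSeq (GRCh38.p14), at the start that coincides with that of the canonical GENCODE 44 transcript. Of the 10 members 9 matched a window, and EGR3 did not. Searched on both strands were the cyclic AMP response element TGACGTCA, its core ACGTCA (which lies in the whole element on each strand), the CArG box bound by serum response factor, the FOXO word TGTTTAC and the AP-1 element TGACTCA. Capitals mark the matches, and each sequence runs 5′ to 3′ on the strand of its gene. JUND lies at chr19:18281623-18281872 (minus strand), EGR2 at chr10:62816367-62816616 (minus strand), JUNB at chr19:12791236-12791485 (plus strand) and IER2 at chr19:13150161-13150410 (plus strand), each window ending at the base before the gene's first exon.
JUND: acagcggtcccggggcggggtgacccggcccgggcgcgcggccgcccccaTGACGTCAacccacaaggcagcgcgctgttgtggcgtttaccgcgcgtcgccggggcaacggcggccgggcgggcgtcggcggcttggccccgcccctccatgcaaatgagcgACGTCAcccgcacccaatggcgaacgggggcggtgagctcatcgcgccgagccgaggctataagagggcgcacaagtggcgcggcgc
EGR2: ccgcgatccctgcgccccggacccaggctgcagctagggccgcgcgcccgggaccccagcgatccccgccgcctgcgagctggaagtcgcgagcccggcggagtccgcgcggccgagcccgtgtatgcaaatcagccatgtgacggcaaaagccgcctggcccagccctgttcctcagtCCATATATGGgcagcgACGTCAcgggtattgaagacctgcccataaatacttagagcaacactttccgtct
JUNB: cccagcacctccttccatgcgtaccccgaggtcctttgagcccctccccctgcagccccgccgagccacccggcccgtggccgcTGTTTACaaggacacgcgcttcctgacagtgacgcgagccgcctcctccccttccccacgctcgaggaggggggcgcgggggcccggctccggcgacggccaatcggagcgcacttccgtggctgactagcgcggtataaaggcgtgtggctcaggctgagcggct
IER2: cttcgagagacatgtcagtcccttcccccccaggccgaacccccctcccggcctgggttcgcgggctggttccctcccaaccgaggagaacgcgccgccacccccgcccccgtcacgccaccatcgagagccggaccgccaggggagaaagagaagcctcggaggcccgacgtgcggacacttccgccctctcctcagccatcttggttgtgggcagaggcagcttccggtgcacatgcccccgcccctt

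The JUND window held a whole cyclic AMP response element from 200 to 193 bases before the start and a further core from 87 to 82 bases before it. In EGR2 a CArG box lay from 71 to 62 bases and a core from 55 to 50 bases before the start. JUNB held the FOXO word from 166 to 160 bases before the start and none of the other motifs, and IER2 held no match to any of them. Over the 9 windows the core was found in 6 (DUSP1, EGR1, EGR2, FOS, FOSB and JUND), against 7.09% of 34788 distinct windows of the same length. The whole element was found in 2 members (DUSP1 and JUND), against 1.64% of windows, and the CArG box in 2 (EGR1 and EGR2), against 1.17%. The FOXO word was in 1 member, JUNB, against 2.98% of windows, and the AP-1 element in 0 of 9, against 4.21%. The called genes therefore shared no single motif of this set in this window. These matches describe letters and do not show binding.

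The deposited tables give 1 normalized value per arm and no value per library, so the arm values below stand without an error of their own. They carry the moderation by which DESeq2 pulls an uncertain fold change towards 0. Errors are standard errors (SE) of the log2 fold change, obtained by dividing the fold change by the normal quantile that matches its p, and intervals are 95% normal intervals of the moderated fold change. Intervals of fold changes before moderation would be wider.

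IER2 had the smallest adjusted p of the members. Its arm values were 912.2 with scrambled and 1720.3 with FOXO3 shRNA in BL-41, 1085 and 1169 in Namalwa, and 2047 and 2251 in Jiyoye (the authors' deposited table). The FOXO3 shRNA arm was thus the higher one in each line, and the arms of Namalwa and Jiyoye lay close together. In BL-41 the rise was 0.92 on the log2 scale (SE 0.14, interval 0.64 to 1.19), which is 1.89-fold, with an adjusted p of 3.98e-09 in the authors' deposited table (DESeq2). For Namalwa the log2 fold change was 0.11 (SE 0.18, adjusted p = 0.865) and for Jiyoye 0.14 (SE 0.43, adjusted p = 0.889) in the authors' deposited table (DESeq2), and neither was called.

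DUSP1, the phosphatase of the set, showed no call. The authors' deposited table gave 261.3 and 242.2 in BL-41, 280.6 and 258.5 in Namalwa, and 250.4 and 278.0 in Jiyoye, for scrambled and FOXO3 shRNA. Its scrambled values were the most alike of the members across the lines, with the highest 1.12 times the lowest. The intervals of its log2 fold change were -0.65 to 0.43 for BL-41, -0.93 to 0.69 for Namalwa and -0.92 to 1.22 for Jiyoye. Moderated changes of up to 1.35-fold, 1.62-fold and 2.32-fold upwards lay within them. Its SE in Namalwa (0.413) and Jiyoye (0.544) came close to the bound of those lines. The narrower interval of Namalwa therefore does not show a closer measurement than in Jiyoye.

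**Figure D1:**
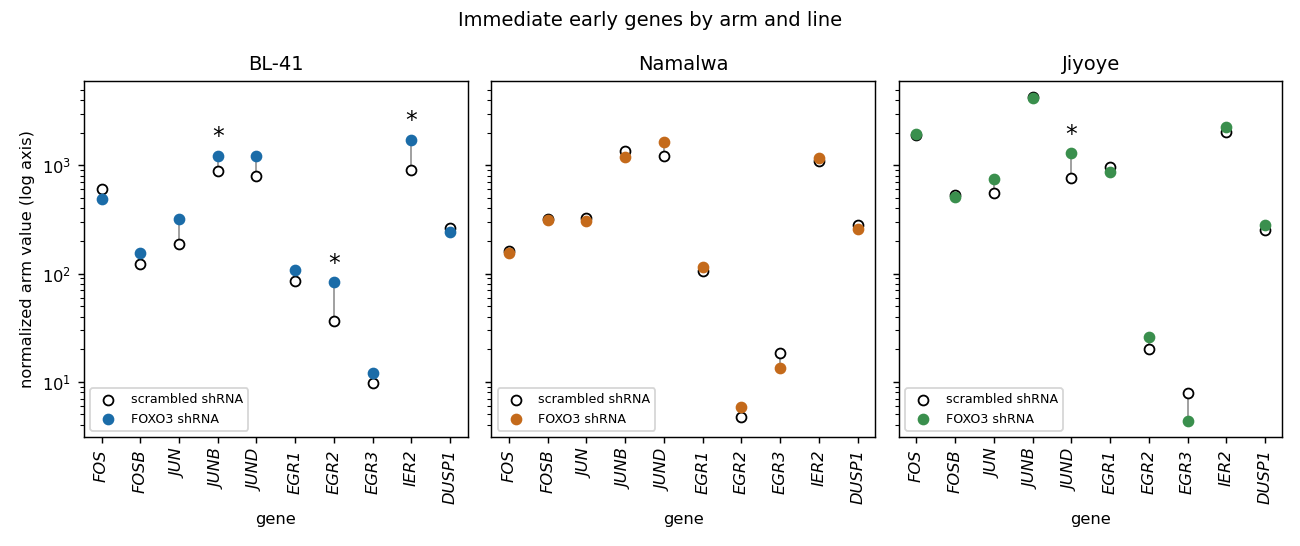
Normalized arm value on a log axis for each immediate early gene (x axis), with scrambled shRNA as open circles and FOXO3 shRNA as filled circles, 1 panel per line. Each point is 1 deposited value for 3 libraries, and a star marks an adjusted p under 0.05. Stars stand over JUNB, EGR2 and IER2 in BL-41 and over JUND in Jiyoye.

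Among the JUN genes, JUNB and JUND were the ones called, each in a different line. JUNB codes for an AP-1 subunit that can restrain JUN, and JUND for the JUN protein that is made most constantly in resting cells. The arm values of JUNB were 876.5 and 1226.8 in BL-41, 1365 and 1184 in Namalwa, and 4245 and 4195 in Jiyoye (scrambled and FOXO3 shRNA, the authors' deposited table). Only in BL-41 was the FOXO3 shRNA arm of JUNB the higher one. JUNB rose there by 0.49 on the log2 scale (SE 0.13, interval 0.23 to 0.74, adjusted p = 0.00118, DESeq2) in the authors' deposited table. The authors' own mark of an increase, which in these tables goes with an adjusted p under 0.05 and a log2 fold change whose size is 0.58 or more, was given to IER2 and EGR2 in BL-41 and JUND in Jiyoye, and not to JUNB. The log2 fold changes of JUNB in Namalwa (-0.20, adjusted p = 0.550) and Jiyoye (-0.02, adjusted p = 0.981) were not called in the authors' deposited table (DESeq2).

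JUND was higher with FOXO3 shRNA in every line. The authors' deposited table gave 790.1 and 1219.5 in BL-41, 1208 and 1647 in Namalwa, and 757.6 and 1299.8 in Jiyoye. In Jiyoye it rose by 0.78 on the log2 scale (SE 0.21, interval 0.37 to 1.19, adjusted p = 0.00241, DESeq2), a 1.72-fold difference, in the authors' deposited table. BL-41 had a log2 fold change of 0.63 with an SE of 0.41 (adjusted p = 0.283, DESeq2), and Namalwa had 0.45 with an SE of 0.20 (p = 0.0272 unadjusted, adjusted p = 0.201, DESeq2), both from the authors' deposited table and neither called. The difference between these values and that of Jiyoye was within error, as given with the tests between lines.

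JUN, the founding member of AP-1, had arm values of 189.0 and 316.4 in BL-41, 325.4 and 304.4 in Namalwa, and 551.1 and 743.5 in Jiyoye (the authors' deposited table). It was not called in any line, with log2 fold changes of 0.74 (SE 0.55), -0.10 (SE 0.42) and 0.43 (SE 0.49) in the authors' deposited table. A fold change of JUN between 0.796 and 3.52 in BL-41 lay within the 95% interval, so a rise as large as that of IER2 was neither shown nor contradicted.

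FOS, the partner of JUN, had arm values of 600.7 and 490.8 in BL-41, 161.0 and 153.6 in Namalwa, and 1911 and 1934 in Jiyoye in the authors' deposited table. FOSB, another FOS protein, had 123.1 and 154.2, 321.1 and 309.6, and 531.5 and 505.5 in the same lines and arms of the authors' deposited table. Neither was called, and the arms of each lay close together beside the error. The intervals of the FOS log2 fold change were -1.46 to 0.88 in BL-41, -0.79 to 0.66 in Namalwa and -0.90 to 0.93 in Jiyoye. Those of FOSB were -0.62 to 1.27, -0.87 to 0.76 and -1.03 to 0.88, so that changes of 1.5-fold in either direction were within the interval for both genes in each line.

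EGR2, which acts in B cells and in myelination of nerves, had arm values of 36.6 and 82.7 in BL-41, 4.77 and 5.81 in Namalwa, and 19.99 and 25.7 in Jiyoye (the authors' deposited table). Its rise in BL-41 of 1.17 on the log2 scale (SE 0.33, interval 0.52 to 1.82, adjusted p = 0.00254, DESeq2) was the largest fold change among the members in the authors' deposited table, 2.26-fold. EGR2 was not called in Namalwa (0.28, adjusted p = 0.863) or Jiyoye (0.36, adjusted p = 0.759) in the authors' deposited table (DESeq2). EGR1, the most studied of the EGR genes, had 84.5 and 107.1 in BL-41, 106.5 and 115.0 in Namalwa, and 956.9 and 873.5 in Jiyoye in the authors' deposited table, with no call. EGR3, which is induced by calcium signals in lymphocytes, was the lowest or second lowest in each line, with 9.80 and 12.1, 18.5 and 13.5, and 7.82 and 4.37 in the authors' deposited table, and it was not called. The log2 fold change of EGR3 in Jiyoye, -0.84 (SE 0.54, adjusted p = 0.333, DESeq2), was the lowest of any member in the authors' deposited table, and at this level it was not separable from 0.

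The 3 members that rose in BL-41 are 30% of the 10, where 14.5% of all 16001 genes tested rose and 14.2% fell (28.7% called in all). Of the genes with a mean of at least 100, which 7 members reach in BL-41, 20.04% rose there, and 2 of those 7 members did. In Jiyoye 1 of 10 rose, where 8.69% of 16787 genes rose and 8.7% fell (17.4% called in all). In Namalwa 0 of 10 were called by DESeq2 (1 at an unadjusted p under 0.05, JUND), where 2.6% of 15365 genes rose and 3.81% fell (6.41% called in all). The count in Jiyoye is near that of all genes. In BL-41 the 30% called in either direction, all of them up, is near the 28.7% of all genes. The median log2 fold change of the members was 0.41 for BL-41, -0.06 for Namalwa and 0.08 for Jiyoye, beside 0.02, 0.00 and 0.01 over all genes. The members in BL-41 lay from -0.29 (FOS) to 1.17 (EGR2), and 8 of 10 were above 0.

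**Figure D2:**
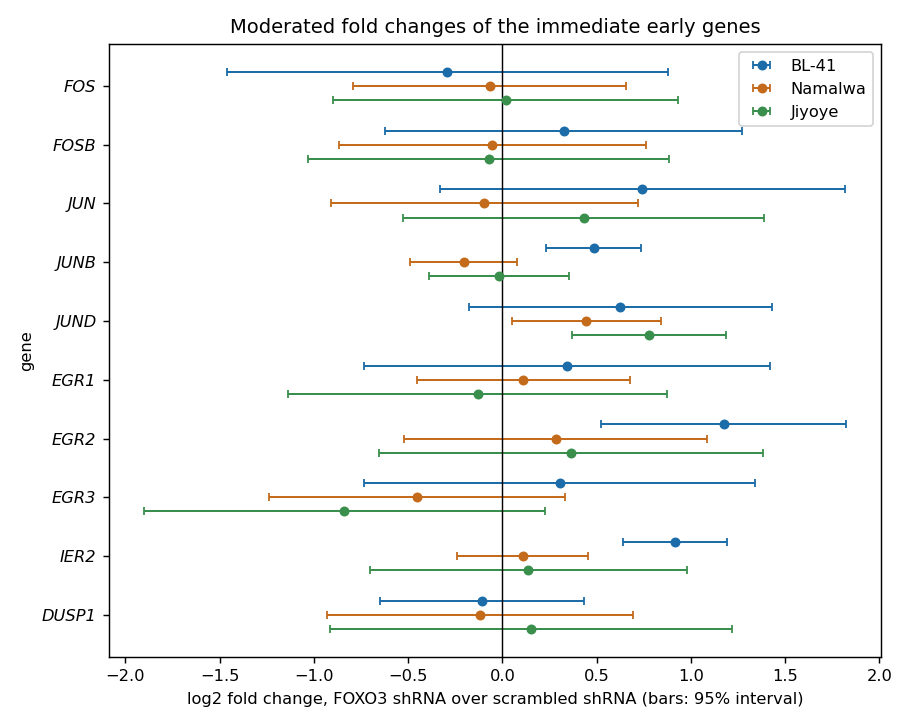
Moderated log2 fold change of each immediate early gene (y axis) with its 95% interval as the bar, 1 colour per line. The intervals of IER2, EGR2 and JUNB in BL-41 and of JUND in Jiyoye and Namalwa lie above 0, and those of FOS, FOSB, JUN, EGR1, EGR3 and DUSP1 cross 0 in every line.

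The fold changes were then combined over the lines, which share no library, as a mean weighted by the inverse of the squared SE, with p-values adjusted over the 14549 genes of all 3 tables by the Benjamini-Hochberg method. Of the members 3 rose by this z test, where 18.7% of all genes rose and 37.7% were called in either direction. IER2 had a weighted mean of 0.57 (SE 0.11, adjusted p = 9.44e-07, z test), JUND of 0.61 (SE 0.14, adjusted p = 6.02e-05, z test) and EGR2 of 0.73 (SE 0.23, adjusted p = 0.00586, z test), each with 3 of 3 lines above 0. Without BL-41 the mean of IER2 was 0.11 (adjusted p = 0.722) and that of EGR2 0.31 (adjusted p = 0.574), so these calls rest on BL-41. JUND passed with any line left out, with means of 0.61 without BL-41, 0.75 without Namalwa and 0.48 without Jiyoye (adjusted p = 0.000364, 0.000358 and 0.0293, z test). JUNB, with a mean of 0.14 (adjusted p = 0.198), passed only without Namalwa (0.33, adjusted p = 0.00832). The means of FOS (-0.08), FOSB (0.06), JUN (0.28), EGR1 (0.10), EGR3 (-0.35) and DUSP1 (-0.07) did not pass, with adjusted p from 0.348 to 0.902 (z test). For FOSB and JUN the SE was lowest in Namalwa (0.416 each), close to the bound of moderation there (0.417). For FOS, EGR1 and EGR3 the SE was also lowest in Namalwa (0.37, 0.29 and 0.40). Namalwa thus had the largest weight in the means of all these genes, on moderated values already pulled towards 0. These means therefore do not show that FOS, FOSB, JUN, EGR1 and EGR3 were unchanged.

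Whether the lines differed was tested on the differences of fold changes. IER2 was higher in BL-41 than in Namalwa by 0.81 (SE 0.23, interval 0.36 to 1.25, adjusted p = 0.0111, z test over 14789 genes), and JUNB by 0.69 (SE 0.19, interval 0.31 to 1.07, adjusted p = 0.0112, z test). These 2 of 10 compare with 7.01% of all genes called in that pair. EGR2, with a difference of 0.89 between the same lines, did not pass (SE 0.53, adjusted p = 0.366, z test). Between BL-41 and Jiyoye 0 of 10 passed (1 at an unadjusted p under 0.05, JUNB), where 6.25% of genes did. The difference for IER2 there was 0.78, as large as that against Namalwa, but its interval ran from -0.11 to 1.66. Between Namalwa and Jiyoye 0 of 10 passed (0 at an unadjusted p under 0.05), where 2.75% of genes did, and the JUND difference was -0.33 (interval -0.90 to 0.24). JUND in BL-41 differed from Jiyoye by -0.15, with an interval from -1.06 to 0.75. The pairs that share a line share its libraries. The bound of moderation on the SE differs between the lines (0.601, 0.417 and 0.544 in BL-41, Namalwa and Jiyoye). Neither these differences nor the weighted means allow for that.

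The error of the fold change set several of these genes apart from most genes with a mean arm value of at least 100. Of the genes with a mean arm value of at least 100, the SE of FOS in BL-41 (0.60) was the largest, and it came close to the largest SE of the table (0.601). FOSB and JUN had SE of 0.48 and 0.55 in BL-41, 0.42 and 0.42 in Namalwa and 0.49 and 0.49 in Jiyoye, where the median SE of such genes was 0.144, 0.127 and 0.149. DUSP1 had an SE of 0.28 for BL-41, 0.41 for Namalwa and 0.54 for Jiyoye, and 98.5%, 99.9% and 99.96% of such genes had a lower one. These values are 1.91 to 4.14 times the median, so that the libraries of an arm differed more in these genes than in most genes with a mean of at least 100. That comparison pools all such genes and was not matched for level.

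Among the 8870 genes whose mean reached 100 in every line, 8 were in the top 1% of SE in all 3 lines. FOS, FOSB, JUN and DUSP1 are 4 of these 8, out of 7 members that reach that mean in each line. This count was made after the errors of the members had been seen, and it is given as a description. JUNB lay among the other genes with a mean of at least 100, with 29.9%, 67.3% and 81.3% of them below its SE in BL-41, Namalwa and Jiyoye. IER2 moved between the lines, with 46.4% and 85.9% of genes below its SE in BL-41 and Namalwa and 99.2% in Jiyoye, where its SE was 0.43. For JUND 99.6% of genes were below its SE in BL-41, against 93.3% in Namalwa and 88.7% in Jiyoye. The members called in a line had an SE of at most 0.33 there, and the SE enters the call itself. Members with a smaller SE than that were also left uncalled, such as JUNB in Namalwa (0.145) and Jiyoye (0.189) and IER2 in Namalwa (0.177). EGR1 was under a mean of 100 in BL-41 and had 99.2% and 99.8% of genes below its SE in Namalwa and Jiyoye. In moderated tables a fold change with so large an SE has been pulled strongly towards 0, so the small values of FOS, FOSB and DUSP1 do not show that these genes were unchanged.

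**Figure D3:**
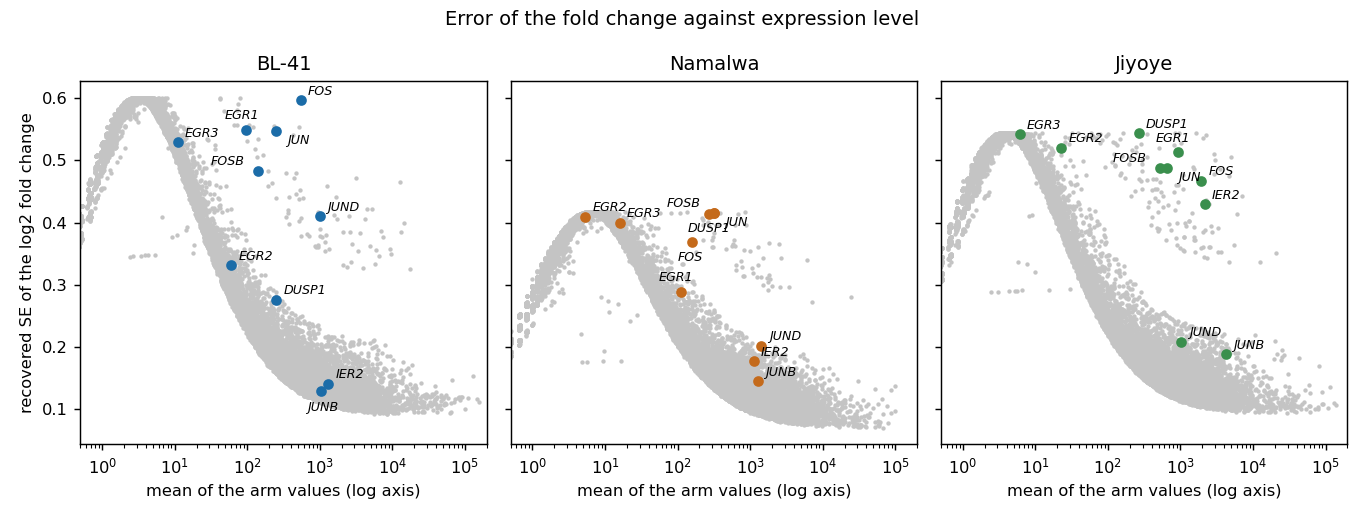
Recovered SE of the log2 fold change (y axis) against the mean of the arm values on a log axis (x axis), 1 panel per line, with every gene in grey and the immediate early genes in colour. FOS, FOSB and JUN stand above the grey band in each line (SE 0.37 to 0.60), while JUNB lies inside it (SE 0.13 to 0.19). The hump at low values is where moderation bounds the SE.

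Levels differed between genes and lines. They are compared here per length, as each arm value divided by the gene length in the table and scaled so that all genes of that arm sum to 1000000 (parts below), and each table was normalized on its own, so no test between lines was made. JUNB was the highest member in each line with scrambled shRNA, at 53.8 parts for BL-41, 87.2 for Namalwa and 268 for Jiyoye. IER2 and JUND followed in BL-41 (49.2 and 45.3) and, in the opposite order, in Namalwa (60.9 and 72.1). In Jiyoye IER2 (113) and FOS (102) came next, ahead of JUND (44.6). EGR2 and EGR3 were the lowest in every line, between 0.205 and 1.37 parts. The SE of a level was not available, so neighbours such as JUNB, IER2 and JUND in BL-41 cannot be ordered beyond their values.

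Jiyoye had the highest scrambled value of FOS, FOSB, JUN, JUNB, EGR1 and IER2. For FOS it was 11.9 times the lowest line, Namalwa, and for EGR1 11.3 times the lowest, BL-41, on the scale of the authors' deposited table. JUND, DUSP1 and EGR3 were highest in Namalwa, at 1.60, 1.12 and 2.36 times the lowest line, and EGR2 in BL-41, at 7.68 times Namalwa. Summed per length, the 10 members made up 209 parts for BL-41, 271 for Namalwa and 614 for Jiyoye with scrambled shRNA, and 282, 280 and 634 with FOXO3 shRNA. The larger sum with FOXO3 shRNA in BL-41 came with the JUN genes (105 to 147 parts) and with IER2 (49.2 to 87.3). DUSP1 had 14.4 and 12.6 there, and the FOS genes had 35.0 and 28.4. Among the JUN genes JUND, which was not called in BL-41, had 45.3 and 65.8.

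Gene structure was compared among the members as a description. JUN, JUNB and JUND have a single exon, as do 5.64% of 20020 canonical protein-coding transcripts (GENCODE 44), and the other members have 2 to 4. The pentamer ATTTA of AU-rich elements, known for shortening the life of such messages, occurred 5 times in the 3′ untranslated region of FOS, 4 times in DUSP1, 3 times in FOSB, JUN and EGR3, 2 times in JUNB and EGR2, 1 time in JUND and EGR1, and 0 times in IER2. The 4 called members thus held 0 to 2 copies, and the 5 members with 3 or more were uncalled, with EGR1 as the uncalled member that held fewer. Over the set, 50% of the members and 40.5% of all genes had 3 or more. The transcript of JUND has a GC content of 69.9%, above that of 99.5% of genes, and JUNB (64.9%) and IER2 (63.0%) were also above most. These are the 3 members highest in GC and all were called in 1 line, while EGR2, the remaining called member, has 51.0%, the lowest of the 10. In the quintile of genes highest in GC content (mean of 100 or more), 30.9% of genes rose in BL-41, 26.5% in Jiyoye and 6.12% in Namalwa, against 15.0%, 7.23% and 2.18% in the lowest quintile. The median log2 fold change of the highest quintile was 0.10, 0.19 and 0.02 in the same order of lines. JUND, JUNB and IER2 lie in that highest quintile. Single-exon genes of that mean, 122 in BL-41, rose in 30.3% of cases there and fell in 4.10%, against 20.04% and 20.9% of genes with more exons. In Jiyoye 14.5% of single-exon genes rose against 12.6% of the others, and in Namalwa 3.23% against 3.799%. The part of GC content, exon number and ATTTA copies in the values of these members was not tested.

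Some members share their locus with another gene. HOOK2 overlaps JUNB on the opposite strand, and whether counting used the strand is not given in the sources used here, so JUNB is uncertain to that extent. For BL-41 the authors' deposited table gave HOOK2 arm values of 257.2 and 327.9, with a log2 fold change of 0.35 (adjusted p = 0.0785, DESeq2). In Namalwa and Jiyoye it gave -0.22 and -0.16 (adjusted p = 0.637 and 0.624, DESeq2). HOOK2 was thus called in no line, but its sign was that of JUNB in each (0.49, -0.20 and -0.02). The part of HOOK2 in the JUNB values, and in their difference between BL-41 and Namalwa, was not tested. ERCC1, a DNA repair gene that overlaps FOSB on the opposite strand, fell by 0.92 in BL-41 and by 0.79 in Jiyoye by the authors' deposited table (DESeq2 adjusted p = 3.19e-09 and 7.71e-09), while FOSB was not called in either line. Other genes annotated antisense to IER2, DUSP1 and EGR3, and 1 that overlaps EGR2 on the same strand, were not analysed here.

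The genes whose log2 fold changes over the 3 lines were most like those of IER2, by Euclidean distance among 8870 genes, were SAMD8 (distance 0.062), AHDC1 (0.065) and SMTN (0.066). SAMD8 had 0.94 for BL-41, 0.10 for Namalwa and 0.08 for Jiyoye in the authors' deposited table. With 3 values per gene this likeness says little more than a rise in BL-41 beside small values in the other lines.

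The wider response was followed in lists of the pathways around these genes. Their counts stand beside the shares over all genes, of which 14.5% rose and 14.2% fell in BL-41, 8.69% and 8.7% in Jiyoye, and 2.6% and 3.81% in Namalwa. Genes with a mean of at least 100 were called more often. Of these 20.04% rose and 20.7% fell in BL-41, 12.7% and 12.8% in Jiyoye, and 3.85% and 5.76% in Namalwa. Most genes of the activator, ERK, and JNK and p38 lists below reach that mean. The partners of FOS and JUN in AP-1-like dimers held 4 of 13 measured genes that rose and 2 that fell in BL-41, 3 of 12 that rose in Jiyoye and 0 of 12 called in Namalwa by DESeq2 (1 at an unadjusted p under 0.05). The shares were 30.8% up and 15.4% down in BL-41, the second near that of all genes, and 25% up in Jiyoye. MAFG, a small MAF protein, rose by 0.80 in BL-41 and 0.69 in Jiyoye, and FOSL2, a FOS-related protein, by 2.48 in BL-41 from a low arm value of 2.79 to 15.6, all by the authors' deposited table (DESeq2 adjusted p from 8.95e-07 to 0.000949). ATF3, a stress-induced factor, fell by 0.56 in BL-41 by the authors' deposited table (DESeq2 adjusted p = 0.000753).

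Activators that sit on immediate early promoters, the serum response factor, ETS and CREB groups, had 5 of 14 up and 2 down in BL-41, 4 up and 2 down in Jiyoye, and 1 up and 2 down in Namalwa. In BL-41 these are 35.7% up, against 14.5% of all genes, and 14.3% down, near the 14.2% of all genes. All 14 have a mean of at least 100, and of genes with that mean 20.04% rose and 20.7% fell in BL-41. For Jiyoye 28.6% were up, against 8.69% of all genes and 12.7% of those with that mean. The CREB coactivator genes moved in different directions in the authors' deposited table. CRTC2 rose by 0.75 for BL-41, 0.30 for Namalwa and 0.53 for Jiyoye (DESeq2 adjusted p from 1.58e-08 to 0.0491), and CRTC1 fell by 0.97 in Namalwa and 0.90 in Jiyoye (adjusted p = 1.05e-06 and 6.24e-05, DESeq2), in the authors' deposited table. CRTC3 fell by 0.95 in BL-41 and 0.41 in Namalwa by the authors' deposited table (DESeq2 adjusted p = 1.91e-09 and 0.000309). ELK3, an ETS factor of the ternary complex on CArG boxes, rose by 2.27 in BL-41 by the authors' deposited table (DESeq2 adjusted p = 4.45e-11). MKL1, a coactivator of serum response factor, rose by 0.70 in Jiyoye by the authors' deposited table (DESeq2 adjusted p = 5.13e-06).

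Of 19 genes of the ERK cascade, 5 rose and 4 fell in BL-41, 5 rose and 1 fell in Jiyoye, and 1 rose and 2 fell in Namalwa. The share up was 26.3% in both BL-41 and Jiyoye, against 14.5% and 8.69% of all genes, and the share down was 21.1% and 5.26%, against 14.2% and 8.7%. In BL-41 18 of the 19 had a mean of at least 100. Of all genes with that mean 20.04% rose and 20.7% fell there, and the share down of the ERK genes was near the latter. HRAS, a small GTPase at the head of the cascade, rose by 1.13 for BL-41, 0.49 for Namalwa and 1.32 for Jiyoye by the authors' deposited table (DESeq2 adjusted p from 9.21e-18 to 0.0408). RPS6KA2, a kinase below ERK, fell by 1.21 in BL-41 and 0.65 in Namalwa by the authors' deposited table (DESeq2 adjusted p = 6.26e-12 and 2.34e-05). Of 13 genes of the JNK and p38 cascades, 1 rose and 4 fell in BL-41, 2 rose and 2 fell in Jiyoye, and 1 fell in Namalwa. The share down in BL-41 was 30.8%, against 14.2% of all genes, and in Jiyoye 15.4% were up and 15.4% down, against 8.69% and 8.7%. MAP2K7, another kinase above JNK, rose by 0.59 in BL-41 and 0.81 in Jiyoye, and MAPKAPK2, a kinase below p38, rose by 0.58 in Jiyoye, by the authors' deposited table (DESeq2 adjusted p from 7.04e-10 to 5.57e-05). MAP2K4, also above JNK, fell by 0.80 in Namalwa and 0.71 in Jiyoye, and MAPK8, which codes for JNK1, fell by 0.90 in BL-41, by the authors' deposited table (DESeq2 adjusted p from 2.32e-07 to 0.000207).

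Feedback inhibitors of these cascades, the class to which DUSP1 belongs, rose in 5 of 13 measured genes in BL-41 and 4 of 14 in Jiyoye, with 0 falling in either line (0 at an unadjusted p under 0.05). These are 38.5% and 28.6%, where 14.5% and 8.69% of all genes rose. In Namalwa 0 of 14 were called by DESeq2 (3 at an unadjusted p under 0.05, all of them lower). SPRY1 and SPRY2, inhibitors of receptor signalling to RAS, rose by 1.36 and 1.12 in BL-41 by the authors' deposited table (DESeq2 adjusted p = 8.99e-12 and 8.45e-06). DUSP7, a phosphatase of ERK, rose by 0.86 in BL-41 and 0.64 in Jiyoye by the authors' deposited table (DESeq2 adjusted p = 5.42e-06 and 0.000873). Their medians were 0.36 for BL-41, 0.00 for Namalwa and 0.19 for Jiyoye.

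Other immediate early genes, 33 measured in BL-41, rose in 11 cases and fell in 3 there. In Jiyoye 4 of 33 rose and 2 fell, and in Namalwa 0 of 29 rose (1 at an unadjusted p under 0.05) and 2 fell by DESeq2. IER3 (1.81), a survival gene, NFKBIZ (1.12), an inhibitor-like protein of NF-kB, and KLF2 (1.06), a zinc finger factor, rose in BL-41 by the authors' deposited table (DESeq2 adjusted p from 7.88e-09 to 1.73e-08). MCL1, a survival protein of the BCL2 family, and RGS2, a regulator of G protein signalling, fell by 0.61 and 0.89 in Jiyoye, and BTG2, an antiproliferative gene, fell by 0.63 in Namalwa, by the authors' deposited table (DESeq2 adjusted p from 9.26e-06 to 0.00207). The share that rose, 33.3% in BL-41 and 12.1% in Jiyoye, stands beside 14.5% and 8.69% over all genes tested. Their SE were also often large in Jiyoye, where 12 of 25 with a mean of 100 or more were in the top 5% of SE, against 4 of 24 in BL-41 and 4 of 24 in Namalwa.

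**Figure D4:**
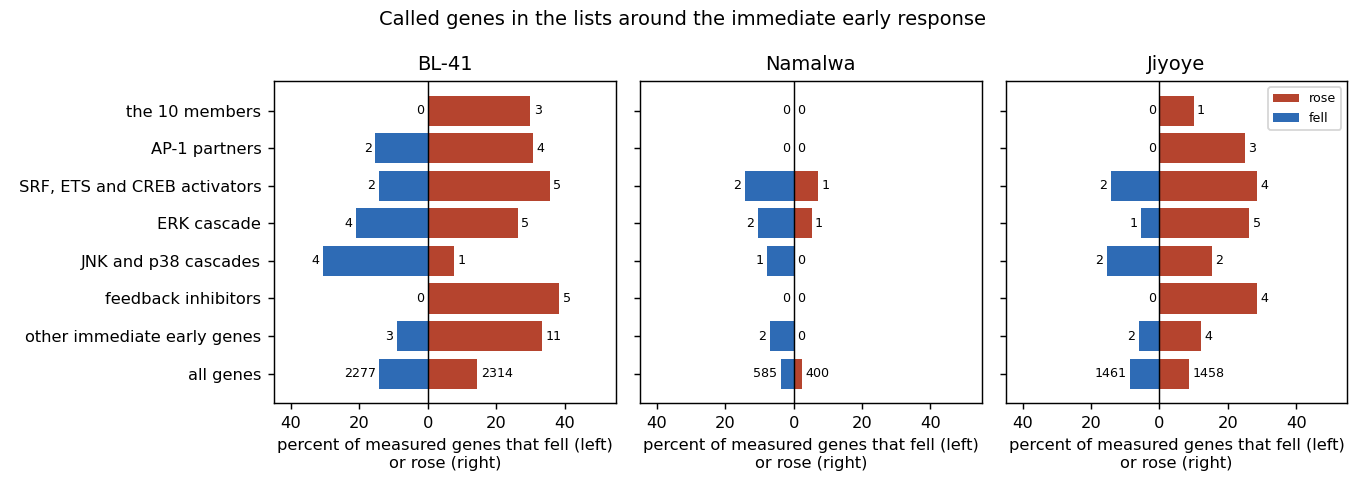
Share of measured genes in each list (y axis) that rose (right) or fell (left) at an adjusted p under 0.05, in percent, 1 panel per line, with the number of called genes beside each bar and all genes as the last bar. In Namalwa no bar of the 10 members, the AP-1 partners or the feedback inhibitors is above 0, while 5 feedback inhibitors rose in BL-41 and 4 in Jiyoye.

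The cell identity of the libraries was checked with markers. B cell markers summed to 57690.1 and 48404.0 in BL-41, 36388 and 37317 in Namalwa, and 12171 and 11474 in Jiyoye (7 genes, scrambled and FOXO3 shRNA). In BL-41, where IER2, EGR2 and JUNB rose, 3 of the 7 fell, CD79B by 0.84, EBF1 by 0.62 and CD22 by 0.48 on the log2 scale of the authors' deposited table. These are 42.9%, where 14.2% of all genes and 20.7% of those with a mean of at least 100 fell. In Jiyoye CD79A and CD79B rose (28.6% of the 7, against 8.69% of all genes), and EBF1 was at only 2.49 and 2.82 in the authors' deposited table. T cell markers summed to at most 133 in any arm, and most of that sum was CD3E (32.8 and 33.5 in BL-41, 34.2 and 60.1 in Jiyoye) and CD4 (18.03 and 23.4 in BL-41, 66.4 and 50.4 in Jiyoye), while each was under 2 in Namalwa. None of the T cell markers was called by DESeq2 in any line (1 at an unadjusted p under 0.05, in Jiyoye). Myeloid markers summed to 184 and 348 in BL-41, 187 and 190 in Namalwa, and 339 and 373 in Jiyoye. Of 8 measured in BL-41, 3 (LYZ, CD14 and CD68) rose, which is 37.5% against 14.5% of all genes, while MPO was under 1 in both arms. In Jiyoye 1 of 9 rose, 11.1% and so near the 8.69% of all genes. That was CD14, from 5.66 to 14.2 (adjusted p = 0.0447, DESeq2). In these bulk libraries fewer cells of a type and less RNA per cell cannot be told apart. The part of these markers in the values of the members was not tested. Summed arm values ran from 17065755 to 18459745 over the 6 arms. They are normalized, so they do not measure sequencing depth, which was not compared.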

How the data were processed

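Messenger RNA was selected with oligo-dT and sequenced from 18 libraries (3 per group, 6 groups), per the labels' protocols. The series' design text names SOAPnuke for filtering. According to the submitters' processing notes, which give no versions, Bowtie2, RSEM, DESeq2 and hg38 were used. The authors deposited, for each line, 1 normalized signal value per arm, the moderated log2 fold change, and p-values with their adjusted values. The ratio of the arm values equalled the deposited fold change within 1.39e-14. Counts per library were not used here, so the calls are those of the authors' DESeq2 test at an adjusted p under 0.05 over all genes of a table.

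From these were computed the SE, the 95% intervals, the z tests between lines and of the weighted mean (Benjamini-Hochberg over all genes), the levels per length, and the motif and transcript counts (GENCODE 44 and RefSeq GRCh38.p14, the same genome as hg38). The 2 z tests were also run on simulated fold changes, drawn as normal values with the recovered SE. No moderation was simulated, so this does not show how the tests behave on moderated fold changes. The members and lists were chosen with earlier results of these data known. Named genes are the 10 members, FOXO3, up to 3 called genes with the smallest adjusted p per list and line (a choice among these is described), overlapping genes, and the 3 genes most like the member with the smallest adjusted p of the weighted mean. The genes of largest SE, and the markers CD3E, CD4, MPO and, for Jiyoye, EBF1, fall outside this rule and were chosen after their values were seen. Alternatives were a threshold of 0.01, a log2 fold change of at least 1 as well, a mean of at least 100, centring on the median fold change, and leaving out a line. Tools were scipy 1.17.1, pandas 2.3.3, numpy 2.4.6 and matplotlib 3.10.9 under Python 3.11.15.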

Additional observations from a re-analysis of the deposited data

Results flagged for a closer look

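The log2 fold change of IER2 differed between BL-41 and Namalwa by 0.81, and that of JUNB by 0.69, both past the z test of the difference (adjusted p = 0.0111 and 0.0112). Both fold changes were higher in BL-41. Against Jiyoye the differences were 0.78 for IER2 (adjusted p = 0.357) and 0.50 for JUNB (adjusted p = 0.192), which did not pass. FOXO3 itself had a log2 fold change of -0.79 in BL-41 and -1.09 in Namalwa in the authors' deposited table, and that difference of 0.30 did not pass (z test, adjusted p = 0.486).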

How the results depend on the processing

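Requiring a log2 fold change of at least 1 as well left 1 called member in BL-41 (EGR2, in place of 3) and 0 in Jiyoye (in place of 1, JUND at 0.78). Leaving BL-41 out of the weighted mean left 1 member past the z test (JUND) in place of 3. The other 20 counts of called members stayed within 1.5 times under the alternatives run, with 2 in place of 3 in BL-41 and in the weighted mean where a mean of at least 100 leaves EGR2 out. No called result reversed. No paired analysis was possible because the deposited columns hold 1 value per arm and none per library, and for the same reason leaving out replicates, edgeR and DESeq2 on counts were not run. Precision is limited by the SE, which moderation bounds at 0.601, 0.417 and 0.544 in BL-41, Namalwa and Jiyoye.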

Other observations

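The other 4 genes in the top 1% of SE in all 3 lines, beside FOS, FOSB, JUN and DUSP1, were HSPA1B, BNIP3, PFKFB4 and JMJD7-PLA2G4B, named after their values were seen. HSPA1B codes for an inducible heat shock protein, BNIP3 and PFKFB4 are known as genes induced by low oxygen, and JMJD7-PLA2G4B is a read-through transcript that can share reads with its parent genes. HSPA1B has a near-identical copy, HSPA1A, with which it can share reads. Its SE was 0.48, 0.36 and 0.54 in BL-41, Namalwa and Jiyoye, at mean arm values of 465.5, 569.5 and 2239. For BNIP3 the SE was 0.41, 0.36 and 0.47, and for PFKFB4 0.55, 0.42 and 0.50. None of the 4 was called in any line in the authors' deposited table (DESeq2, adjusted p from 0.131 to 0.930). PFKFB4, BNIP3 and JMJD7-PLA2G4B had lower FOXO3 shRNA values in each line, with log2 fold changes from -0.95 to -0.14 in the authors' deposited table, and HSPA1B had a higher one in BL-41 (0.95) and lower ones in Namalwa (-0.10) and Jiyoye (-0.30).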
